A study of Mus musculus with 6 samples.

Results

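Open chromatin was examined around 10 mouse genes of the antioxidant system: Nfe2l2, Keap1, Nqo1, Gclc, Gclm, Txnrd1, Srxn1, Sod2, Cat and Gpx4. A peak belonged to a gene when its summit lay in the span of that gene or within 100 kb of it and no other protein-coding span was nearer. By this rule 285 of the 525802 deposited peaks on chromosomes 1 to 19 and X belonged to the 10 genes, which are 10 of 21631 protein-coding genes. They come from ATAC-seq, an assay of accessible DNA by cutting with the Tn5 transposase, of tdTomato-sorted mesenchymal stem and progenitor cells (MSPCs) of bone marrow. All mice were female and Lepr-Cre;LSL-tdTomato+/-, a genotype in which Cre under control of the leptin receptor gene turns on a red reporter in the stromal lineage around marrow vessels, and they were 8 to 10 weeks old at treatment. The DOX group (3 libraries) had received 4 intravenous doses of 5 mg/kg doxorubicin at intervals of 1 week, and the PBS group (3 libraries) 4 injections of phosphate-buffered saline. Marrow was taken 8 weeks after treatment. How many mice stand behind a library is unknown, and p-values cover only the spread between libraries.

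NRF2, the product of Nfe2l2, is a transcription factor that KEAP1 holds in the cytoplasm and hands over for degradation. Oxidants and electrophiles modify KEAP1, NRF2 then enters the nucleus, pairs with small MAF proteins and binds antioxidant response elements in genes of glutathione and thioredoxin metabolism. Doxorubicin is an anthracycline that poisons topoisomerase II, and its quinone group can pass electrons to oxygen, so that superoxide and hydrogen peroxide form. The comparison asks what chromatin at these genes looked like long after the drug had been given.

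The sequences below are those stretches upstream of an annotated gene start, in windows touched by a peak in every library, that hold a match to the antioxidant response element or to AP-1, the site of FOS and JUN factors. They show where the letters of the NRF2 site lie within these windows. The open regions reach beyond the windows, and those parts were not searched. The windows are RefSeq's 250 bases before to 50 bases after a start (GRCm38.p6, the assembly behind mm10), of which only the part before the start is printed, 5′ to 3′ on the strand of the gene. Capitals mark the matches, on either strand: TGACNNNGC for the antioxidant response element, its G form TGAGNNNGC, and TGANTCA for AP-1.
Nfe2l2, chr2:75704865-75704913, minus strand: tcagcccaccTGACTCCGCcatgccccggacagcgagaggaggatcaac
Gclm, chr3:122245393-122245461, plus strand: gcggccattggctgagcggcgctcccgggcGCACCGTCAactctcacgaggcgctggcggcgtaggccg
Txnrd1, chr10:82859084-82859152, plus strand: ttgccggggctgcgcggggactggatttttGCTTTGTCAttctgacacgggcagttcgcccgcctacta
Srxn1, chr2:152105336-152105517, plus strand: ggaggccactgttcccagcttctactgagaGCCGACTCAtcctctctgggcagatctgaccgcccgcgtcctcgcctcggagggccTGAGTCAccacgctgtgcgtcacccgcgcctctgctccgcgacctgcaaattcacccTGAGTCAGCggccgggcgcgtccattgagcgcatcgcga

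Counted from the gene start, the antioxidant response element match began at -240 in Nfe2l2, at -134 in Gclm and at -92 before the second annotated start of Txnrd1. In Srxn1 a match lay after the start, at 29, and is not printed. TGACNNNGC was found in 4 of the 14 windows of 9 of these genes and in 12.4% of all 32619 windows of the same length. The Srxn1 start also held AP-1 matches at -102 and -45, and the latter shares its bases with the G form TGAGTCAGC. A second G form match began at -158. TGANTCA occurred in 1 of the 14 windows and in 7.85% of all windows, and TGAGNNNGC in 1 of the 14 and in 17.8% of all. The G form overlapped AP-1 in 0.417% of all windows. That form was added to the search after the windows were seen. Srxn1 encodes sulfiredoxin, which repairs overoxidised peroxiredoxins. The GC box GGGCGG was found in 11 of the 14 windows and in 35.9% of all windows, and none of the 14 held the E-box CACGTG, present in 7.20%. The 11 windows belong to 9 genes and are not all separate: Gpx4 windows 2 and 3 overlap and hold the same GC boxes. A match is a run of letters, not evidence of binding, and the windows of Nqo1, Keap1, Cat, Sod2 and Gpx4 had no match to TGACNNNGC, TGAGNNNGC or TGANTCA.

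The libraries differed in depth in the same direction as the treatment. The mean number of fragments per position was solved from the fold and p-value of a sample of 2919 to 3936 peaks per library. It was 1.27, 1.10 and 0.558 in PBS replicates 1, 2 and 3 and 1.72, 1.67 and 2.22 in DOX replicates 1, 2 and 3. The deposited lists held 65462 to 89264 peaks in PBS and 91026 to 100642 in DOX. Unless said otherwise, each list was therefore reduced to its 65462 strongest peaks, and overlapping peaks of the 6 libraries were merged into 78613 regions. Regions are numbered along each gene by coordinate. A peak's strength is given as its percentile in the list of its own library, where 100 is the strongest peak. The sort label was checked on gene starts: 8 of 8 MSPC markers with an annotated window, Lepr, Cxcl12, Kitl, Pdgfra, Ebf3, Foxc1, Prrx1 and Adipoq, had a peak there in every library. Starts of B cell (0 of 4) and T cell (0 of 3) markers had none in any library. Of 4 myeloid markers 1 had a start peak in every library except DOX replicate 2, and Elane, Mpo and Lyz2 had none. Erythroid (Epor, of 4) and endothelial (Kdr, of 3) markers had 1 each in every library. In bulk cells, fewer cells of a type with an open region and less opening per cell cannot be told apart.

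The 10 genes held 43 regions, and 28 of them had a peak in all 6 libraries. Txnrd1, which encodes the cytosolic thioredoxin reductase, had the most, 9 regions, followed by Nfe2l2 with 7 and by Nqo1 and Gclc with 6 each. Gclm had a single region and Srxn1 and Sod2 had 2. Over all protein-coding genes the median was 1 region, and 90.0% of genes had fewer regions than Txnrd1. The peaks farthest from their gene lay 63.7 kb from Nfe2l2, and no deposited peak beyond 100 kb had one of the 10 genes as its nearest. Genes in crowded surroundings lost peaks to neighbours: 315 deposited peaks within 100 kb of Gpx4 were nearer to another gene, the closest of them 298 bp from Gpx4 and assigned to Sbno2, against 14 such peaks around Gclc.

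**Figure D1:**
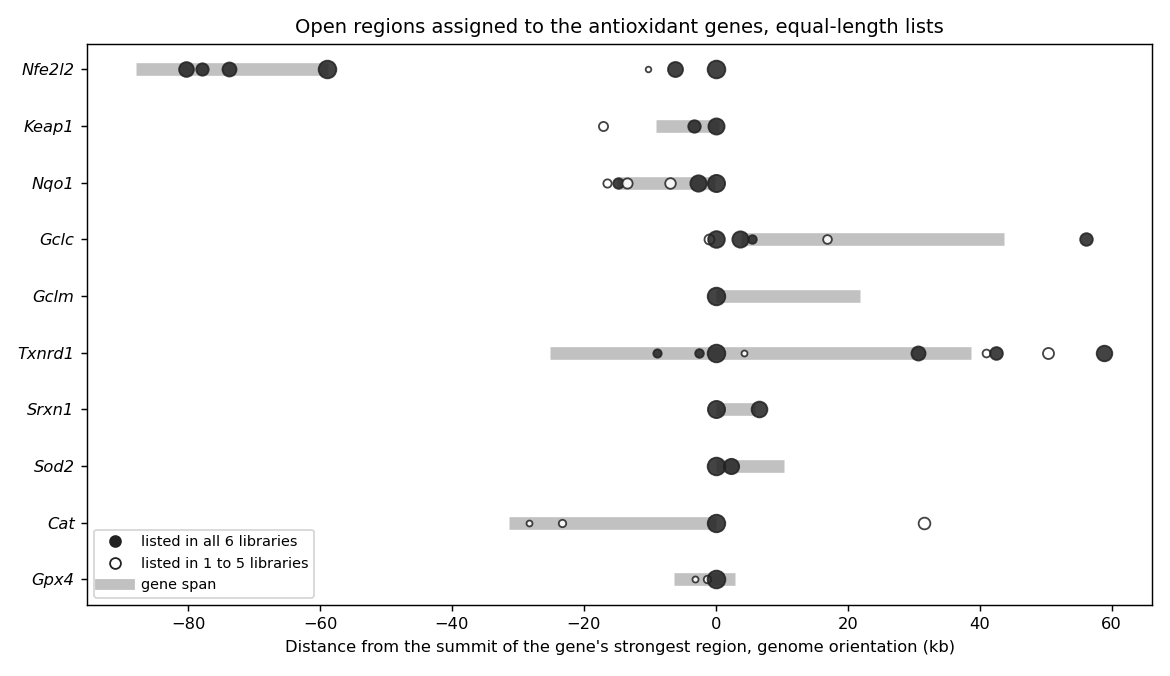
Places of the 43 regions along the genome, in kb from the summit of the strongest region of each gene; grey bars are gene spans, the size of a circle grows with the median percentile, filled circles are listed in all 6 libraries and open circles in 1 to 5. The strongest region lies within 3.8 kb of an end of the span in 8 genes, 25.1 kb inside the span in Txnrd1, and 58.8 kb upstream of the start in Nfe2l2, whose gene lies to the left.

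Starts of these genes were open in both groups, and most ranked high. All 9 genes with an annotated start had a peak over it in each of the 6 libraries, as had 55.6% of the 17274 genes with such a window. The mean percentile of the strongest start region ran from 80.4 (Keap1) to 99.0 (Gpx4), with a median of 97.3 over the 9 genes, against a median of 88.8 (quartiles 77.8 and 95.3) over 9778 genes with a start region listed in every library. Keap1 was the only one of the 9 below that median.

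Nfe2l2 (chromosome 2, 75675513 to 75704663, minus strand) had a start region with percentiles of 97.3, 97.9 and 98.5 in PBS and 97.3, 97.8 and 97.7 in DOX. The groups overlapped. Keap1, the gene of the NRF2 inhibitor (chromosome 9, 21229730 to 21239332, minus strand), stood at 79.9, 81.1 and 78.0 in the PBS libraries and at 79.7, 80.4 and 83.1 in the DOX libraries at its start, so that the spread within each group exceeded the difference of the means, 79.7 and 81.1.

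Gpx4 (chromosome 10, 80047166 to 80056439, plus strand), the glutathione peroxidase that removes lipid hydroperoxides, had the strongest region of the 10 genes, at 98.9 to 99.4 in PBS and 98.8 to 99.0 in DOX. It covered 3 of the 4 annotated starts, while the first start, 6.4 kb from the summit, had no peak in any library. Txnrd1 (chromosome 10, 82833951 to 82897724, plus strand) was alike in this respect: the region over the later 2 of its 3 annotated starts ranked at 97.2, 97.6 and 96.7 in PBS and 98.3, 98.3 and 98.0 in DOX, and the first start, 25.1 kb away, had no peak in any library. Sod2, the mitochondrial superoxide dismutase (chromosome 17, 13007839 to 13018119, plus strand), ranked at 97.3 to 98.5 in PBS and 97.5 to 98.5 in DOX.

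Cat, the catalase gene (chromosome 2, 103453904 to 103485153, minus strand), had start percentiles of 96.2, 95.8 and 95.4 in PBS and 97.2, 96.6 and 97.5 in DOX. Each DOX value lay above each PBS value, by a small margin. Gclm, the modifier subunit of the enzyme that starts glutathione synthesis (chromosome 3, 122245487 to 122267215, plus strand), ranked at 96.1 to 98.2 in PBS and 96.5 to 98.3 in DOX. Its region also covers the annotated start of the lncRNA gene Gm46822, so the openness of the 2 starts cannot be told apart. Nqo1, a quinone reductase gene and a classical NRF2 target (chromosome 8, 107388225 to 107403205, minus strand), ranked at 91.7 to 93.7 in PBS and 92.2 to 93.7 in DOX. Srxn1 (chromosome 2, 152105524 to 152111376, plus strand) ranked at 90.4 to 92.2 and 91.5 to 92.7.

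Gclc (chromosome 9, 77754535 to 77794489), the catalytic subunit of the same enzyme as Gclm, was described by the end of its span with the lower coordinate. The annotation used gave no start window or strand for Gclc, so it does not say whether this end is the start. The region there ranked at 83.7, 83.6 and 83.2 in the PBS libraries and at 80.1, 77.8 and 78.9 in the DOX libraries. All PBS values lay above all DOX values. A stronger region, 3.8 kb outside that end (77750058 to 77751648), averaged 85.4 ± 2.50 for PBS and 86.6 ± 1.00 for DOX (SD, n = 3 each), and there the groups overlapped.

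**Figure D2:**
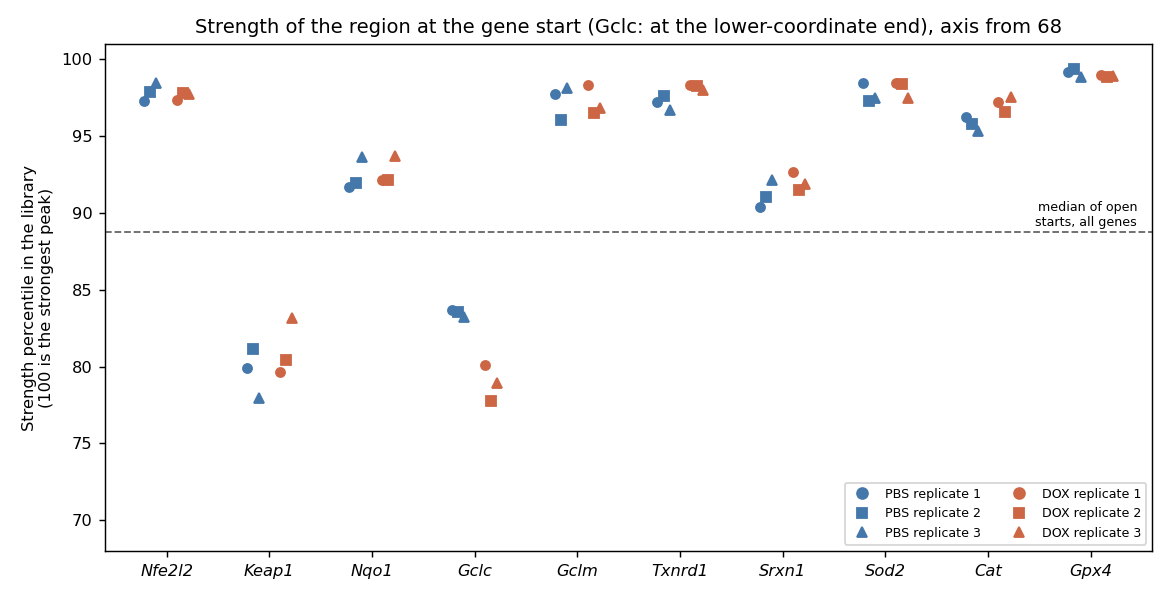
Strength percentile of the region over the gene start in each library, on an axis that begins at 68; for Gclc it is the region at the lower-coordinate end, and each symbol is a library. Gclc is the gene where PBS lies wholly above DOX, Txnrd1 and Cat are those where DOX lies wholly above PBS, and the dashed line is the all-gene median of 88.8.

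Across the 28 regions listed in all libraries, none differed in strength between treatments at an adjusted p of 0.05 (limma over 49098 shared regions, Benjamini-Hochberg, lowest adjusted p among the 28 = 0.217). Over all regions 0% were called, and 13.4% had an unadjusted p under 0.05, which 6 of the 28 also had. DOX was higher in 19 of the 28 and lower in 9, with a median difference of 1.12 percentile points, against 0.305 over all regions, of which 54.4% were higher. DOX lay wholly above PBS in 3 of the 28, where the background was 10.9% of shared regions, and wholly below in 2, where it was 7.85%.

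The Gclc region at the lower-coordinate end of the span had the lowest adjusted p. It differed by -4.58 ± 1.45 percentile points (SE; limma, adjusted p = 0.217), lower in 3 of 3 DOX libraries, from 83.5 ± 0.229 with PBS to 78.9 ± 1.17 with DOX (SD, n = 3 each). In the full deposited lists, whose lengths differ, it was -1.04 points. At the other PBS-above-DOX region, 698 bp beyond the far end of Srxn1 (152111840 to 152112324), the values were 76.2, 77.7 and 80.0 in PBS and 73.8, 75.7 and 76.1 in DOX, a difference of -2.77 ± 1.86 points (SE; limma, adjusted p = 0.549). The lowest PBS and the highest DOX value nearly met, and in the full deposited lists the direction turned (0.71 points).

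The strong region upstream of Nfe2l2 was the most prominent of the 10 genes away from a start. It lay 58.8 kb upstream (75763038 to 75763825), outside any gene, with the lncRNA gene Gm34657 at a distance of 5375 bp and no annotated start in it. Of 38865 shared regions that touch no annotated start, 0.677% were as strong on average. Its percentiles were 96.9, 98.2 and 96.6 in PBS and 99.0, 98.4 and 99.1 in DOX, or 246, 316 and 258 times the background of the library in PBS and 287, 306 and 324 times in DOX. DOX was higher in percentile in 3 of 3 libraries, by 1.56 ± 0.50 points (SE; limma, adjusted p = 0.223). Times-background values are not scaled between libraries, and on that scale the groups overlapped. Between it and the gene lay a region 52.6 kb upstream (75756965 to 75757799) averaging 69.2 ± 2.67 with PBS and 67.7 ± 2.33 with DOX (SD, n = 3 each).

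Inside Nfe2l2, 3 further regions were shared by all libraries. The one 21.5 kb into the gene averaged 64.6 ± 2.13 with PBS and 70.6 ± 4.89 with DOX, that at 19.0 kb 37.9 ± 15.1 and 44.1 ± 8.03, and that at 75689061 to 75689951 55.9 ± 4.46 and 60.2 ± 3.49 (SD, n = 3 each). The groups overlapped in each.

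Txnrd1 had the largest differences, in weak regions near its open starts. At 82850143 to 82850743, inside the gene and inside the lncRNA gene Gm38560, the percentiles were 5.92, 0.448 and 17.2 in PBS and 31.4, 12.4 and 36.3 in DOX. The difference was 18.8 ± 8.13 points (SE; limma, adjusted p = 0.342), and DOX replicate 2 lay below PBS replicate 3. At 82856271 to 82856660 the percentiles were 17.1, 6.42 and 6.81 in PBS and 38.9, 16.2 and 35.6 in DOX, a difference of 20.2 ± 7.76 points (SE; limma, adjusted p = 0.290). DOX replicate 2 lay below PBS replicate 1. Both regions rest on few fragments: the pileups at the summits were 18, 14 and 9 and 22, 16 and 7 in PBS, and 37, 26 and 58 and 44, 28 and 57 in DOX, where the libraries were deeper. The part of depth in these differences was not tested.

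The start region between them and the rest of Txnrd1 differed by 1.03 ± 0.45 points (SE; limma, adjusted p = 0.343), with every DOX library above every PBS library. It also covers the annotated start of the lncRNA gene Gm38560. Farther along, the region 55.8 kb past the first start averaged 54.3 ± 9.44 with PBS and 60.7 ± 2.81 with DOX, that at 67.7 kb 42.6 ± 7.15 and 48.3 ± 4.17, and that at 84.0 kb, beyond the gene, 75.7 ± 1.97 and 73.3 ± 1.41 (SD, n = 3 each). The Cat start differed by 1.31 ± 0.51 points (SE; limma, adjusted p = 0.294).

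**Figure D3:**
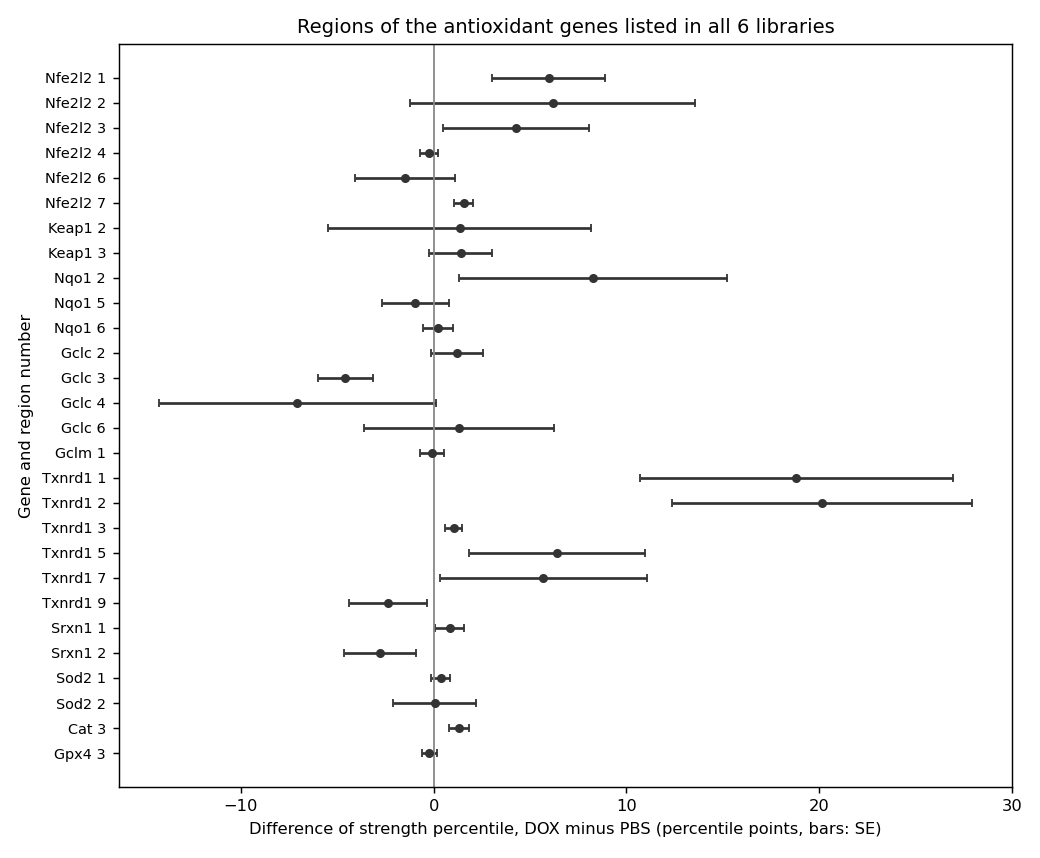
Difference of strength percentile, DOX minus PBS, with its SE for the 28 regions listed in all 6 libraries, numbered along each gene by coordinate. The 2 weak Txnrd1 regions stand at 18.8 and 20.2 points, the Gclc region at the lower-coordinate end of the span at -4.58, and none passed adjustment.

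The groups also overlapped in the shared regions that remain. Among these Nqo1 region 2, 14.7 kb into the gene, averaged 24.9 ± 7.18 with PBS and 33.2 ± 7.79 with DOX, and Nqo1 region 5, 2.7 kb into the gene, 81.8 ± 2.59 and 80.8 ± 2.16 (SD, n = 3 each). Gclc region 4, inside the gene (77756111 to 77756543), averaged 19.6 ± 5.46 with PBS and 12.5 ± 6.30 with DOX, a direction that turned in the full deposited lists (5.46 points), and Sod2 region 2, 2.3 kb into the gene, 71.5 ± 1.37 and 71.5 ± 0.870 (SD, n = 3 each). In Keap1 the region 3.8 kb into the gene had 40.3 ± 8.95 and 41.7 ± 11.2, and in Gclc that 12.4 kb beyond the span had 46.1 ± 2.94 and 47.4 ± 5.19 (SD, n = 3 each).

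No region of the 10 genes was listed in all 3 libraries of one treatment and none of the other. Over all 78613 regions 0.792% were of the DOX kind and 0.303% of the PBS kind. Of the 15 regions missing from at least 1 equal-length list, 5 were missing from 1 library, and all 15 had lower median percentiles than any gene start named above. The regions named next were chosen after their values were seen. In the equal-length lists, Nqo1 regions 1 and 3, Txnrd1 region 6 and Gpx4 region 1 were listed in 3 DOX libraries and 1 PBS library. The share of all regions with that split is not given here. Each of them had a peak in a further PBS library before the lists were cut. These were PBS replicate 2 for Nqo1 region 1 (11.9 times the background) and PBS replicate 1 for the others, with 11.8 times at Gpx4 region 1. That Gpx4 region was weak in DOX too, at percentiles of 0.520, 16.2 and 4.48. Cat region 1 was listed in 2 DOX libraries and had no peak in any deposited PBS list. Nqo1 region 3 lay inside the gene, 13.4 kb from the start (107389529 to 107389938). Its percentiles were 30.1, 25.8 and 28.1 in DOX and 9.76 in PBS replicate 2, and it was not among the strongest peaks of PBS replicates 1 and 3. In the deposited lists its summit was 20.9, 20.3 and 21.6 times the background in DOX, 12.6 and 15.5 times in PBS replicates 1 and 2, and had no peak in PBS replicate 3. Among peaks at least 20 times the background, this was therefore the single DOX-only region of the 10 genes. Its DOX values lay just above that threshold. The share of all regions that were DOX-only at the threshold is not given here.

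In the other direction, a region 4831 bp outside the lower-coordinate end of Gclc (77749485 to 77749969) had 41.1 and 33.0 in PBS replicates 1 and 2 and 23.1, 16.2 and 25.1 in DOX. It had no peak in PBS replicate 3, so it entered no test. A region inside Gclc (77767517 to 77767724) was in the equal-length lists of PBS replicates 1 and 3 and of no DOX library, although DOX replicates 1 and 3 listed it at 9.88 and 6.75 times the background. PBS replicate 3, the shallowest library, had no peak at 11 of the 15 partly listed regions in the deposited lists.

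**Figure D4:**
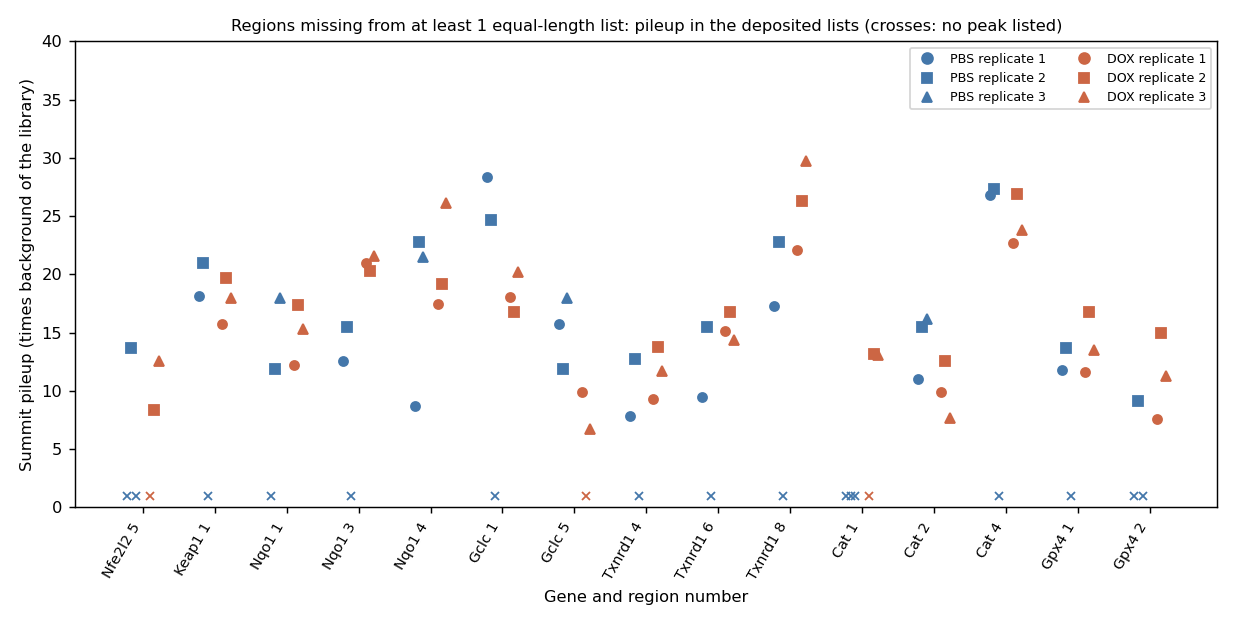
Summit pileup, in multiples of the background of each library, at the 15 regions missing from at least 1 equal-length list, as given by the deposited lists; crosses are libraries without a peak. At Nqo1 region 3 the DOX libraries stand at 20.3 to 21.6 and the PBS libraries at 12.6, 15.5 and no peak, and at Gclc region 1 the 2 PBS libraries with a peak lie above all DOX libraries.

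None of the 9 genes that averaged 2 peaks or more passed the test of peak number (limma on log2(peaks + 0.5), 0 of 9 called, lowest adjusted p = 0.655, and 0 of 9 with an unadjusted p under 0.05), where 1.08% of 8784 genes were called, 0.535% higher and 0.546% lower in DOX, and 5.57% had an unadjusted p under 0.05. Nqo1 counted 3, 5 and 5 peaks in the PBS libraries and 6 in each DOX library. On the log2 scale this was a difference of 0.46 ± 0.21 (SE; adjusted p = 0.655 by limma). In the deposited lists the groups overlapped, with 5, 6 and 5 peaks against 6 in each DOX library, and the difference was 0.16. It was 0 in lists cut to 32731 peaks. Without PBS replicate 1 it was 0.24 (adjusted p = 0.00186 by limma), a value that rests on equal numbers within each group. Txnrd1 counted 7, 9 and 6 peaks in the PBS libraries against 8, 9 and 8 in the DOX libraries, and Cat 2, 3 and 2 against 2, 4 and 3.

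Keap1, Srxn1 and Sod2 had the same number of peaks in all 6 libraries, 3, 2 and 2, and Gclm, with 1 in each, was below the filter. For Keap1 the equal numbers hide a difference: PBS replicate 3 had no peak in region 1 and 2 peaks in the start region. In the deposited lists Sod2 counted 3 peaks in all DOX libraries and 2 in all PBS libraries, a difference of 0.49 on the log2 scale (adjusted p = 0.00011 by limma). That p-value too rests on equal numbers within each group. The extra peak lay between the start and the next region, and its summit reached 6.40, 7.77 and 11.7 times the library background. In PBS replicate 2 the peak over the start extends to the same place, 13009074. This call was thus made on full lists, which are longer in DOX, and not on lists of equal length.

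Genes around the pathway were counted in 3 lists. Of 14 genes for NRF2 control, such as Cul3, part of the ligase that marks NRF2 for degradation, 13 could be tested for peak number, of 26 other NRF2 targets 23, and of 29 other antioxidant enzymes 19, and limma called none in either direction (1.08% of all genes were called; 0, 1 and 2 of them had an unadjusted p under 0.05). Their 64, 87 and 75 shared regions included none that was called, with median differences of 0.43, 0.29 and 0.09 percentile points. Starts were open in every library in 11 of 12, 21 of 21 and 24 of 25 genes with a window. The exceptions were Bach2, a repressor that competes for the same sites, and Aifm2, neither of which had a start peak in any library.

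Among the 124, 125 and 126 regions of these lists, 0, 1 and 3 were of the DOX-only kind and none of the PBS-only kind, beside 0.792% and 0.303% of all regions. The first lay 762 bp outside Gsr, the glutathione reductase gene (chromosome 8, 33652254 to 33652605), at percentiles of 18.0, 22.8 and 14.3 in DOX. In the deposited lists PBS replicates 1 and 2 had it at 12.6 and 11.9 times the background and DOX at 16.3, 19.1 and 16.2. Others lay inside Msra, a methionine sulfoxide reductase gene (chromosome 14, 64453917 to 64454089), inside Txnrd3 (chromosome 6, 89659797 to 89660027), and 86381 bp from Msrb3 (chromosome 10, 120694479 to 120694837). Of the 4, only the Msra region had no peak in any deposited PBS list. Its percentiles in DOX were 21.5, 6.05 and 0.839, the last among the weakest peaks kept.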

How the data were processed

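The authors deposited 1 peak list per library, with mm10 coordinates and, per the submitters' processing notes, MACS2 2.2.7.1, Bowtie2 2.4.5, Trim Galore 0.6.6 and Picard 2.10.9 among the tools named without a role, with settings unknown. For every deposited peak the authors' caller gave a fold enrichment (a ratio over background), −log10 values of p and q and a score, none scaled between libraries, plus the summit's offset in bp. Fold and −log10 p of a sample of 2919 to 3936 peaks per library, each with a −log10 p under 200, were solved for the background of that library. Of these solutions 98.9% to 100% lay within 1% of the library's median, which was used. Regions are merged peaks that overlap by at least 1 bp, and a region takes the gene of its strongest summit; in overlapping genes the nearest gene end decides. Gene spans are RefSeq GRCm38.p6; starts with strand exist for 17274 protein-coding genes. Strength percentiles (regions in all 6 libraries) and log2(peaks + 0.5) (genes averaging 2 peaks or more) were tested with limma 3.58.1 in R 4.3.3, with trend and robust options, on all features. Both fits were tested on simulated data, where they recovered 69% of 4-fold changes in peak number and 66% of shifts of 30 percentile points. The changed genes were drawn from those with more peaks than the filter asks. Simulated peak numbers followed a Poisson distribution, also for genes whose real numbers were equal in all libraries. The simulated percentiles were not capped at 100, so strong regions took values that cannot occur. Every difference of the 28 regions was smaller than 30 points, and smaller shifts were not simulated. These rates therefore do not give the power of the tests for the 10 genes. The 10 genes and the lists were chosen with earlier results of these data known, and the G form of the element was added after the windows were seen. All 10 genes were named; for each, the rule named the strongest region, those with the largest and smallest difference, and any past the threshold or listed after 1 treatment only. Pathway genes were named where they passed a test or held such a region. Regions and genes outside this rule (Cul3, Bach2 and Aifm2 among them) were chosen after their values were seen. Alternatives covered list length, a stricter threshold, pseudocount, filter, rank scale, assignment, spread estimate, replicate block and each library left out.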

Additional observations from a re-analysis of the deposited data

How the results depend on the processing

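Depth followed treatment, presence in a list is a threshold call, and 3 libraries a group leave wide errors. Calls among all genes for peak number, 47 higher and 48 lower in DOX, became 76 and 13 with full deposited lists, 112 and 93 without the filter on low counts, 75 and 24 when union regions were counted, 96 to 145 and 70 to 137 with 1 library left out, and 21 and 17 with the replicate number as a block. Same-numbered libraries did not deviate together (correlations of 0.131, -0.116 and 0.0491 for strength), not every library correlated best with its own number, and no call among the 10 genes appeared under the block. Of the 10 genes 0 were called, with 1 (Sod2) on full lists and 0 to 1 with a library left out (Nqo1, without PBS replicate 1). Shared regions called were 0 to 4 higher (4 without PBS replicate 1) and 0 to 1 lower (1 without DOX replicate 1) over all regions. DOX-only regions of the 10 genes numbered 1 at 20 times the background and 0 to 3 with a library left out (3 without PBS replicate 2, 1 each without PBS replicate 3 and DOX replicate 1), and PBS-only regions 0 to 1 (1 without PBS replicate 2). With a library left out, fewer libraries have to meet the rule. The shares over all regions under these settings are not given here, so these counts have no background beside them. Another definition of a shared region, by merging summits within 150 bp, gave 0 of either kind; a further condition on the share of a peak that must be covered was not run.

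Differences that turned sign were small or weakly measured, and the cause was not tested. For the peaks of Gclc the log2 difference was 0.15 with full lists and 0.16 with lists cut to 32731 peaks, and for Gpx4 it ran from -0.32 to 0.29 with a library left out. With full lists, differences in percentile points became 0.047 (Nfe2l2 region 4), 2.62 (Nfe2l2 region 6), 1.497 (Nqo1 region 5), 5.46 (Gclc region 4), 0.22 (Gclm), 1.57 (Txnrd1 region 9) and 0.71 (Srxn1 region 2). With a library left out they ran from -1.68 to 13.4 (Nfe2l2 region 2), -0.53 to 0.044 (Nfe2l2 region 4), -2.64 to 0.024 (Nfe2l2 region 6), -3.45 to 7.77 (Keap1 region 2), -2.43 to 0.29 (Nqo1 region 5), -0.28 to 0.85 (Nqo1 region 6), -0.049 to 2.45 (Gclc region 2), -1.61 to 3.36 (Gclc region 6), -0.70 to 0.34 (Gclm) and -0.58 to 0.78 (Sod2 region 2). Apart from the calls of Sod2 and Nqo1 above, none of the genes and regions tested singly crossed the threshold under an alternative.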
